A study of Mus musculus with 5 samples.

Results

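In confluent 3T9 mouse fibroblasts with both Myc and YAP switched on, most of the regions bound by RNA polymerase II (RNAPol2) shared no base with a peak of Myc, TEAD or YAP. These RNAPol2 peaks, called no-factor peaks here, were chosen by their own length, under 4000 bp, and by sharing not even 1 bp with any peak of the factors. There were 32152 of them among 49650 RNAPol2 peaks, or 64.8% (95% Wilson interval 64.3 to 65.2). They were lower and narrower than the RNAPol2 peaks that held Myc, and 69.7% of them (69.2 to 70.2) lay in rows of 3 or more, one after the other, with gaps of at most 5 kb and no other RNAPol2 peak between. Only 4.79% lay more than 100 kb from an RNAPol2 peak that held Myc.

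The cells were 3T9MycER fibroblasts by their labels, and the study names the line with inducible YAP 3T9MycER;YAP. It is an immortalised embryonic line that carries MycER, a fusion of Myc and a hormone-binding domain that 4-hydroxytamoxifen (OHT) switches on, and in which doxycycline drives expression of YAPS127A, a YAP mutant that escapes an inhibitory phosphorylation. The cells were confluent and quiescent before Myc and YAP were switched on. Chromatin immunoprecipitation and sequencing (ChIP-seq) was done for RNAPol2, Myc, TEAD and YAP, and every one of these 4 samples had received both 400 nM OHT and 2 µg/ml doxycycline, so the levels are those of a fused Myc and an expressed YAP mutant in 1 cell line. The RNAPol2, Myc and TEAD samples were fixed with 1% formaldehyde and the YAP sample with disuccinimidyl glutarate before 1% formaldehyde. With 1 sample per antibody there was no replicate error and no test between conditions. The intervals cover counting error only and treat peaks as independent, which neighbouring peaks are not, and reads without molecular identifiers are not independent molecules. As a check on evenness along the genome, it is stated on how many of the 20 chromosomes (1 to 19 and X) a difference had the same direction.

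RNAPol2 starts transcription at promoters, often pauses a short way into the gene, then travels through the gene body and runs past the end of the gene before it lets go of the DNA. The antibody used here, N20, was raised against the amino terminus of the largest subunit and therefore binds the enzyme whatever the phosphorylation of its tail, at the promoter as well as in the gene body. A caller of narrow peaks tends to break a low, broad signal into separate pieces. Myc binds mostly at promoters that are already open, TEAD proteins bind DNA at enhancers and promoters, and YAP reaches DNA through partners such as TEAD. Positions are those of the deposited lists, in the mm9 build. No annotation of that build was used, so the regions carry no gene names and their position relative to exons and introns was not analysed here.

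The RNAPol2 list rested on 38345189 tags, the TEAD list on 31770727, the YAP list on 29528304 and the Myc list on 20441605, each against a control of 60189064 tags. They held 48571 TEAD, 14354 Myc and 10293 YAP peaks. Since Myc had the fewest tags, the absence of a Myc peak means that none was called at that depth. The height of a peak is given as its pileup, the number of overlapping fragments at the summit, and as its fold enrichment, the pileup relative to the control at the same place.

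The no-factor peaks were far lower than the peaks with Myc and somewhat lower than those with TEAD or YAP. Their median fold enrichment was 4.97, with quartiles of 4.30 and 5.93, against 17.16 for the 11226 RNAPol2 peaks under 4000 bp that held Myc and 5.86 for the 5084 that held TEAD or YAP but no Myc. Their median pileup was 27 (quartiles 24 and 33), against 94 with Myc and 34 with TEAD or YAP. No-factor peaks thus had the lowest median of each measure, and their median fold enrichment was below that of both other classes on 20 of 20 chromosomes. Because the lists were called at fixed thresholds, and a weak RNAPol2 region can hold a factor signal under the factor's threshold, these heights are given as a description.

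The range was wide all the same. The pileup of the no-factor peaks ranged from 17 to 290, and their fold enrichment, with its extremes in other peaks, from 1.47 to 47.3. A fold enrichment of at least 10, called strong from here on, was found in 1389 no-factor peaks or 4.32% (4.10 to 4.55), against 23.3% of all RNAPol2 peaks, 74.3% of those with Myc and 17.7% of those with TEAD or YAP. The median −log10 q-value was 8.89 for the no-factor peaks and 76.76 for the peaks with Myc. The control differed less between the classes than the height did, since the level of the control under the peak (pileup over fold enrichment) had a median of 5.10 for no-factor peaks, 5.05 with Myc and 5.56 with TEAD or YAP. Many peaks sat at or just above the lowest control level, 4.77. These were 42.6% of the no-factor peaks, 48.6% of those with Myc and 34.1% of those with TEAD or YAP.

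Width separated the no-factor peaks from the Myc-holding ones in the same direction. Their median width was 420 bp (quartiles 292 and 711), against 1052 bp with Myc and 513.5 bp with TEAD or YAP. The rule itself limits length, and a wider peak has more bases to share with a factor peak, so widths are given as a description. No-factor peaks under 300 bp numbered 8720 (27.1%) and had a median fold enrichment of 4.40. The 4962 no-factor peaks of 1000 bp or more (15.4%) had a median of 7.12, so the wider no-factor peaks were also the higher ones. In all, no-factor peaks made up 64.8% of the RNAPol2 list but 45.5% of the bases it covered, 20763.1 kb.

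Ranked by fold enrichment, the RNAPol2 list turned from mostly no-factor to almost wholly other peaks. Each of the lowest 4 deciles was 87.0% to 88.8% no-factor peaks. The share was 84.3%, 79.5% and 70.1% in the next 3 deciles, then fell to 45.1%, 15.1% and 1.81% in the highest 3. Among the top 1% of RNAPol2 peaks, 2 of 496 were no-factor peaks, or 0.403%. Strong RNAPol2 peaks under 4000 bp without any of the 3 factors were therefore present, but rare. The other peaks included 538 of 4000 bp or more that also held no factor and were left out by length alone. Their median fold enrichment was 11.30 and 342 of them (63.6%) were strong, so the length limit took some strong factor-free peaks out of these shares. Their 90th percentile of fold enrichment was 19.3, however, below the 20.98 of the whole RNAPol2 list. How many fell in each decile was not counted.

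**Figure D1:**
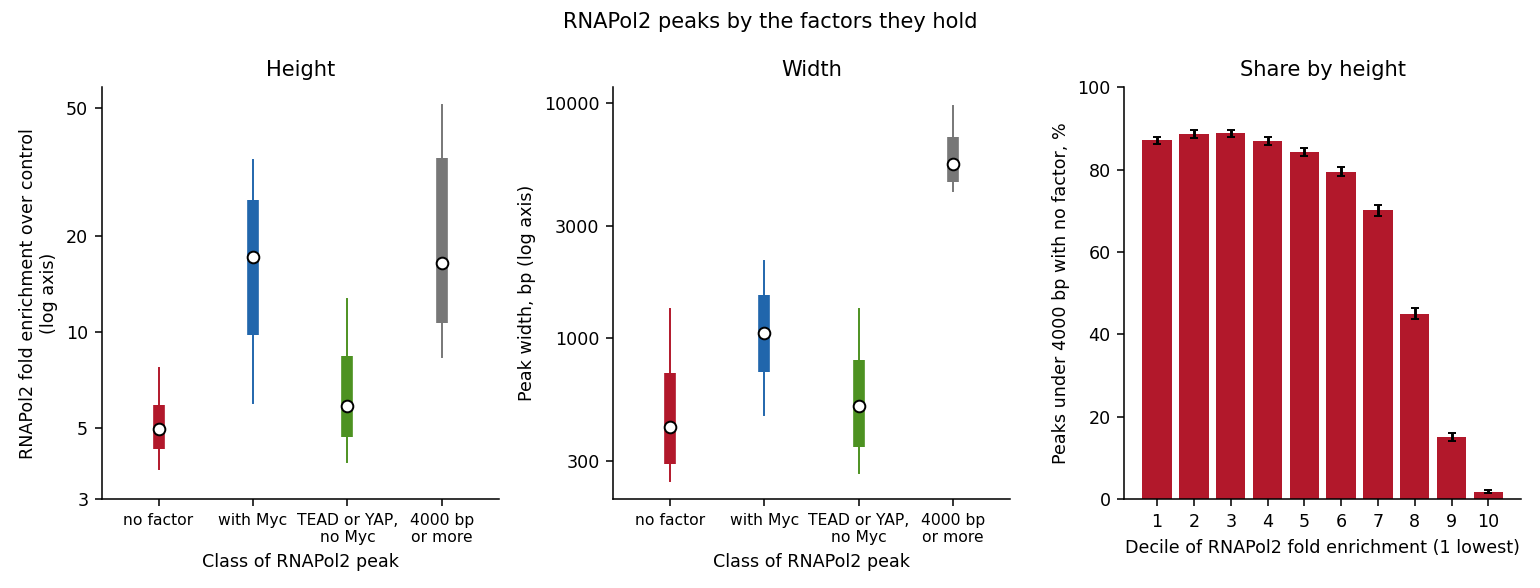
RNAPol2 fold enrichment over control (left, log axis) and width in bp (middle, log axis) by class of RNAPol2 peak; points are medians, thick bars the quartiles and thin bars the 10th and 90th percentiles over peaks of 1 sample. The right panel gives the share of no-factor peaks in each decile of the RNAPol2 list by fold enrichment with 95% Wilson intervals, which goes from 87.1% in the lowest decile to 1.81% in the highest.

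How far the no-factor peaks lay from Myc-bound polymerase was measured from edge to edge to the nearest of the 11716 RNAPol2 peaks of any length that held Myc. The median distance was 14.3 kb, with quartiles of 5.26 and 33.6 kb and a range of 52 bp to 4579 kb. Within 10 kb lay 12745 no-factor peaks or 39.6% (39.1 to 40.2), and within 1 kb 2913 or 9.06%. The most populated class was 10 to 50 kb, with 14496 peaks or 45.1%. Beyond 100 kb lay 1540 peaks, or 4.79% (4.56 to 5.03).

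RNAPol2 peaks with TEAD or YAP but no Myc were spread differently around Myc-bound polymerase. Their median distance was 19.5 kb, 36.3% lay within 10 kb and 14.8% (13.8 to 15.8) beyond 100 kb. The share beyond 100 kb was smaller for the no-factor peaks on 19 of 20 chromosomes, while the share within 10 kb was larger on 15 of 20. The curves of cumulative distance crossed, with more of the TEAD or YAP peaks very near Myc and more of them very far from it.

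**Figure D2:**
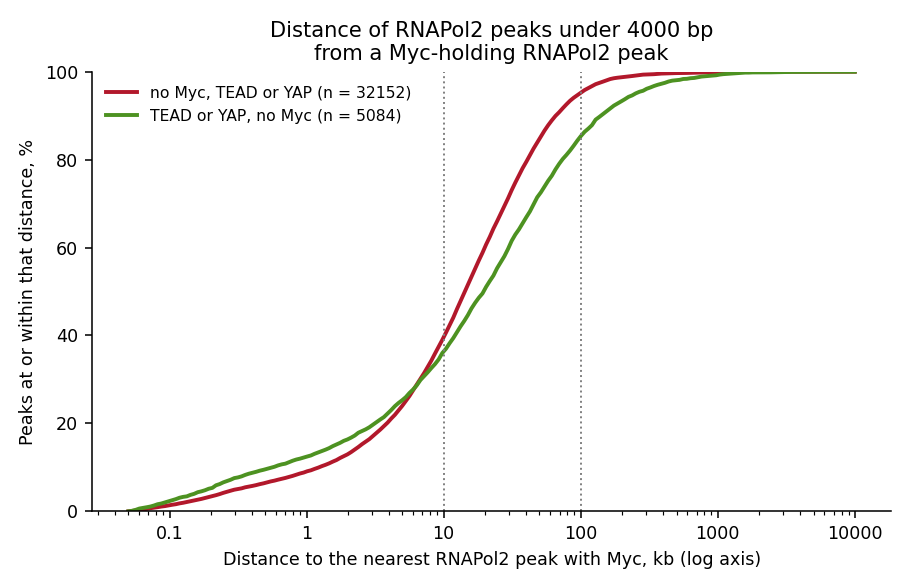
Cumulative share of RNAPol2 peaks (vertical axis, percent) at or within a given distance in kb (horizontal log axis) of the nearest Myc-holding RNAPol2 peak; red, the 32152 no-factor peaks; green, the 5084 peaks with TEAD or YAP but no Myc; dotted lines mark 10 and 100 kb. At 100 kb, 4.79% of the no-factor peaks and 14.8% of the others are still to come.

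The typical no-factor peak was as high near Myc as far from it. Its median pileup was 28 both within 10 kb and beyond 100 kb, a ratio of 1.00, and its median fold enrichment was 5.0 near and 5.23 far. By chromosome, the median fold enrichment was lower near than far on 17, higher on 2 and equal on 1. The small difference in fold enrichment therefore recurred along the genome, while that in pileup did not, being lower near on 9, higher on 6 and equal on 5. The median width was 431 bp near and 408 bp far, and within width classes the fold enrichment near and far was 4.40 and 4.60 under 300 bp, 4.74 and 5.02 from 300 to under 500 bp, 5.44 and 5.94 from 500 to under 1000 bp and 7.28 and 7.43 at 1000 bp or more. The control level moved with distance as well, from a median of 5.19 near to 4.90 far, and its part in the difference was not tested.

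Strong peaks, however, made up a larger share at both ends of the distance scale, though in number the most, 484, lay at 10 to 50 kb. They were 8.44% (7.49 to 9.51) of the no-factor peaks within 1 kb of Myc-holding RNAPol2, 4.16% at 1 to 5 kb, 3.82% at 5 to 10 kb, 3.34% (3.06 to 3.64) at 10 to 50 kb, 3.68% at 50 to 100 kb and 9.29% (7.94 to 10.8) beyond 100 kb. The share within 1 kb exceeded that at 1 to 10 kb on 19 of 20 chromosomes, and the share beyond 100 kb exceeded that at 10 to 100 kb on 20 of 20. Both orders held in each of the 7 other settings of the lists, overlaps, lengths and chromosomes, which share many of their peaks. The 90th percentile of fold enrichment followed the same course, at 9.29 within 1 kb, 7.38 at 10 to 50 kb and 9.65 beyond 100 kb, while the medians stayed between 4.88 and 5.23. Among RNAPol2 peaks with TEAD or YAP but no Myc, strong ones were 17.5% within 1 kb, 16.5% at 1 to 5 kb and 22.7% at 5 to 10 kb. Farther out they were 16.3% (14.7 to 18.1) at 10 to 50 kb, 16.1% at 50 to 100 kb and 20.2% (17.5 to 23.3) beyond 100 kb. For these peaks too the share was somewhat higher beyond 100 kb than at 10 to 50 kb, but the intervals overlapped. It stayed below the 22.7% at 5 to 10 kb, and its direction was not counted by chromosome.

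No-factor peaks kept mostly to each other's company. The nearest RNAPol2 peak of any kind was another no-factor peak for 25974 of them, or 80.8%, while no-factor peaks were 64.8% of the list. It held Myc for 3544 (11.02%) and TEAD or YAP without Myc for 1682 (5.23%), and it was a wide peak of 4000 bp or more for 952 (2.96%). The median distance to the next RNAPol2 peak was 0.32 kb, and 91.2% (90.9 to 91.5) had one within 5 kb, against 58.3% of RNAPol2 peaks with TEAD or YAP, 50.8% of those with Myc and 94.4% of the wide ones. The share with a neighbour within 5 kb was higher for no-factor peaks than for TEAD or YAP peaks on 20 of 20 chromosomes.

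Rows of consecutive no-factor peaks were counted as runs when their gaps were at most 5 kb. There were 3843 runs of 3 or more, which held 22398 no-factor peaks. The median run spanned 5.92 kb, of which the peaks themselves covered 53.6%, and the median gap between its peaks was 447 bp (quartiles 193 and 1104 bp). No gap between RNAPol2 peaks of any kind was shorter than 52 bp, so nearer pieces appear as 1 peak. These runs stretched over 30.57 Mb in all, against 7.76 Mb for the 1188 RNAPol2 peaks of 4000 bp or more, and 2760 of the runs were at least 4 kb long.

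The share in runs changed with the lists that entered. It dropped from 69.7% to 41.5% when only peaks with a −log10 q-value of at least 10 were kept in every list, which left 14552 no-factor peaks. With every list reduced to its upper 50% by fold enrichment, 13571 no-factor peaks remained and 32.1% of them lay in runs. Both settings lower the number of peaks as well as removing the weak ones, and these were not separated.

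Longer runs held more uniformly low peaks. Of the no-factor peaks that stood alone in their run, 5426 in number, 10.3% were strong, against 4.81% in pairs, 3.36% in runs of 3 to 5, 3.06% in runs of 6 to 10, 1.67% in runs of 11 to 20 and 1.46% in runs of more than 20. The median fold enrichment varied little over the same classes, from 5.02 for single peaks to 4.71 in the longest runs, whereas the 90th percentile went from 10.05 to 6.36. The median width was 372 bp for single peaks and 445 bp in runs of 11 to 20. The share of strong peaks was higher for single peaks than in runs of 3 or more on 20 of 20 chromosomes and in each of the 7 other settings. A single peak was not always isolated, because any other RNAPol2 peak ended a run. Single peaks were 42.5% of the no-factor peaks within 1 kb of Myc-holding RNAPol2, 13.0% at 10 to 50 kb and 30.0% beyond 100 kb. The control level was 5.05 for single peaks and 5.73 in runs of more than 20, and its part in the order was not tested.

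**Figure D3:**
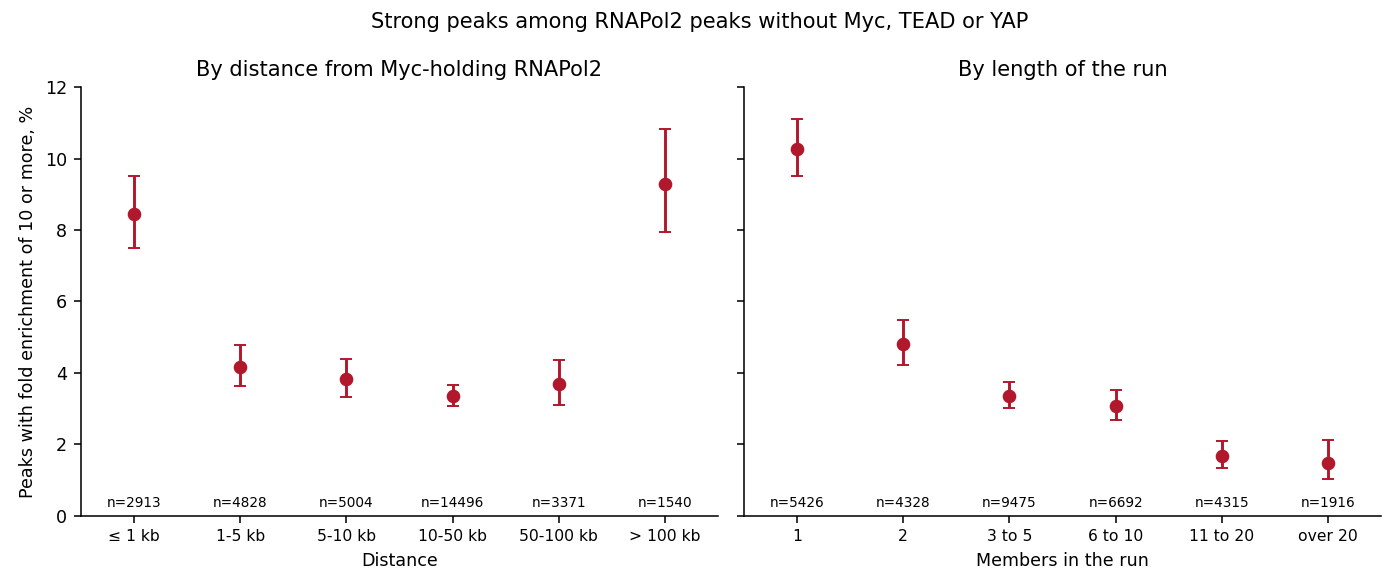
Share of no-factor peaks with a fold enrichment of 10 or more (vertical axis, percent) by distance from the nearest Myc-holding RNAPol2 peak (left) and by the number of no-factor peaks in the run (right); points are shares, bars 95% Wilson intervals for counting error, and n the peaks in each class. The share is 8.44% within 1 kb and 9.29% beyond 100 kb with lower values between, and it falls from 10.3% for single peaks to 1.46% in runs of more than 20.

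Peaks with no RNAPol2 neighbour at all were scarcer and more often strong. Only 1790 no-factor peaks (5.57%) had no RNAPol2 peak of any class within 10 kb, and 251 of these, or 14.0% (12.5 to 15.7), were strong, against 3.75% of the rest. The difference had the same direction on 20 of 20 chromosomes and in each of the 7 other settings. Among these 1790, the 359 that also lay beyond 100 kb from Myc-holding RNAPol2 had a median pileup of 33 and a median fold enrichment of 6.28, and 24.2% (20.1 to 28.9) were strong. The 1431 lone peaks nearer to Myc had a median fold enrichment of 5.02, and 11.5% (9.91 to 13.2) were strong. Far peaks that did have an RNAPol2 neighbour within 10 kb, 1181 in number, resembled the bulk, with a median of 5.02 and 4.74% strong. Fully isolated peaks were thus 1.12% of all no-factor peaks.

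Most runs did not touch Myc-bound polymerase. Of the 3843 runs of 3 or more, 158 (4.11%) had a Myc-holding RNAPol2 peak within 5 kb as the next RNAPol2 peak at both ends and 1194 (31.1%) at 1 end. For 2491 (64.8%) neither end met one, and 1642 of these (42.7% of all runs) ended with no RNAPol2 peak of another class within 5 kb on either side. The median fold enrichment of the peaks was 4.90, 4.94 and 4.92 in the runs with both, 1 and no such ends. Heights were also counted along the 610 runs of 5 or more peaks that met a Myc-holding peak at 1 end. From that end, the first 5 peaks had a median fold enrichment of 4.92, 4.81, 5.01, 5.04 and 4.92, and the last peak 4.87. Only called peaks enter these medians, and signal below the calling threshold would be missing rather than low. Whether polymerase signal fell away from Myc along a run therefore cannot be read from them. Factor peaks in the gaps of runs were few, with a TEAD peak in 128 runs (3.33%), a YAP peak in 14 and a Myc peak in 6. The rule keeps this count low, because a factor peak that touches an RNAPol2 peak ends the run. Only factor peaks lying wholly within the gaps, of median 447 bp, could count, so no conclusion is drawn from it.

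The run with the most peaks lay on chromosome 17 from 80974526 to 81091167 and held 66 no-factor peaks over 116.64 kb, with 33.2% of the span covered. Their fold enrichment ran from 2.59 to 14.19 with a median of 4.72, and the highest sat 2.957 kb from the left end of the run. No other RNAPol2 peak lay within 5 kb of either end, and the nearest Myc-holding one was 94.35 kb away. Low RNAPol2 peaks thus followed one another for more than 100 kb, with the nearest Myc-holding one well beyond either end.

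The other long runs differed in what bordered them. That on chromosome 13 from 104587959 to 104676901 held 55 peaks of median fold enrichment 5.02, and the nearest Myc-holding RNAPol2 peak was 23.05 kb to the left. That on chromosome 7 from 80571286 to 80639301 held 53 peaks of median 5.02 and began 587 bp from a wide RNAPol2 peak with Myc. The run on chromosome 4 from 58096119 to 58162075, with 48 peaks of median 5.02, was bordered by RNAPol2 peaks with TEAD or YAP at both ends, at 392 and 117 bp, and lay 54.18 kb from Myc. The run on chromosome 19 from 45007163 to 45064163 held 43 peaks of median 4.40, began 164 bp from a Myc-holding peak and had its highest peak, of fold enrichment 20.56, at 52.298 kb from its left end. None of the 5 runs had a Myc, TEAD or YAP peak in its gaps, where only a factor peak clear of every RNAPol2 peak could count. Peaks with a fold enrichment over 10 numbered 1 or 2 in 4 of these runs and 0 in that on chromosome 4, so each run was for the most part a file of low peaks, whatever stood at its borders.

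**Figure D4:**
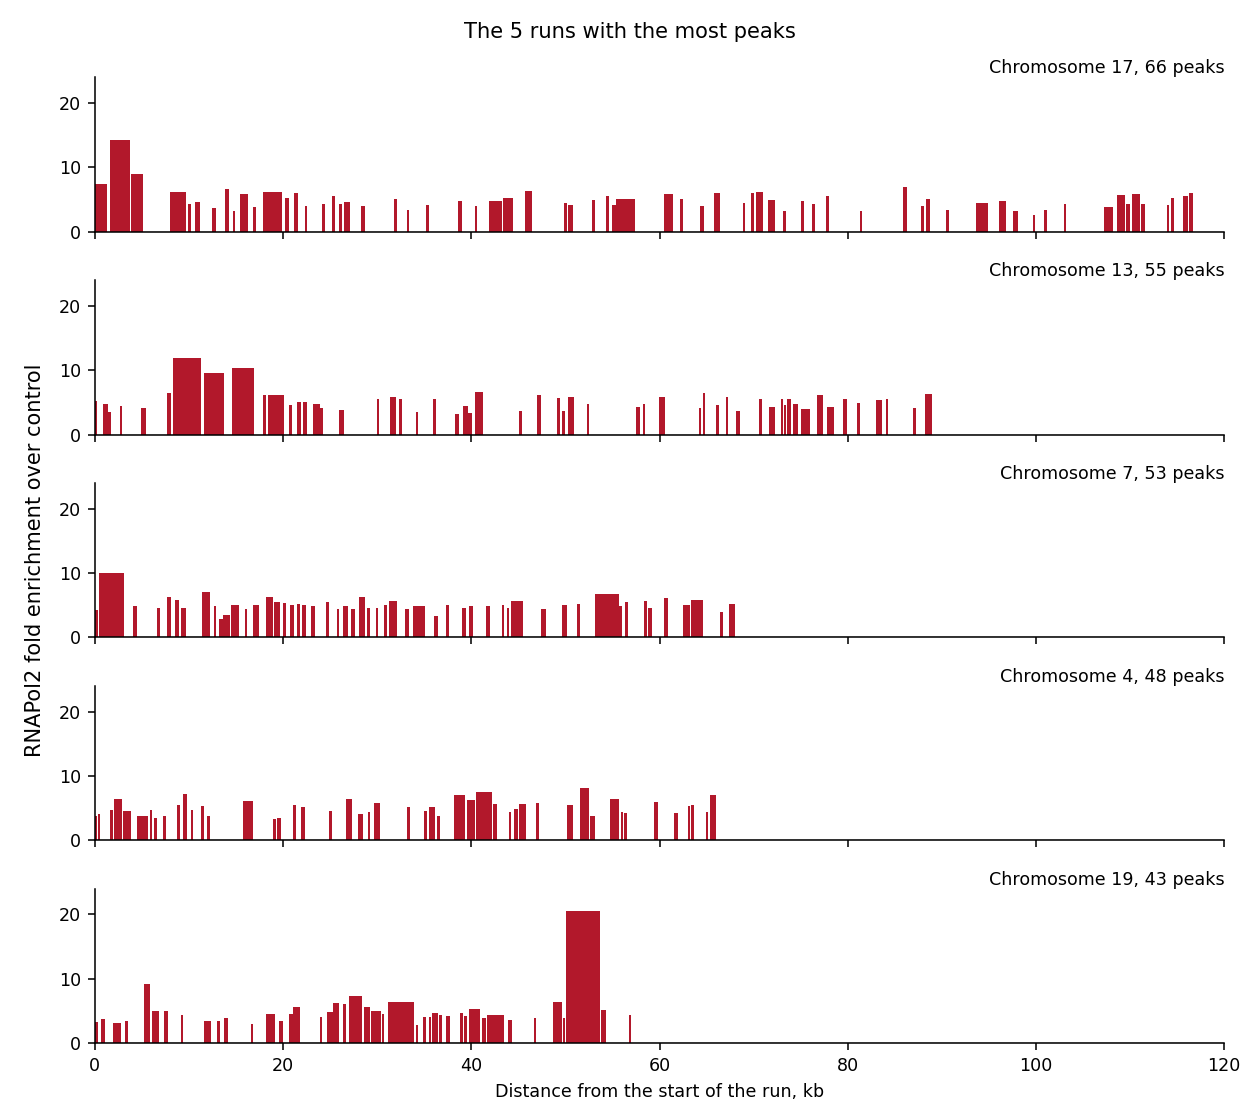
RNAPol2 fold enrichment over control (vertical axis) of every no-factor peak in the 5 runs with the most peaks, against distance in kb from the left end of the run; each bar is 1 peak drawn to its width. Most bars stand near 5, and the tallest reach 14.19 on chromosome 17 and 20.56 on chromosome 19.

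Seen from the Myc-bound side, many sites with Myc and polymerase had no-factor peaks in their 20 kb flanks. Of the 11716 Myc-holding RNAPol2 peaks, 6957 or 59.4% (58.5 to 60.3) had at least 1, with a mean of 2.60 and at most 35. The share was 55.1% and the mean 3.13 around RNAPol2 peaks with TEAD or YAP but no Myc, and 94.3% and 7.30 around wide RNAPol2 peaks, so such flanks were not particular to Myc. The no-factor peaks fell on 1 side only for 4790 of them (68.9%), a figure that includes those with a single flanking peak. With 5 or more in the flanks, 1114 of 2524 (44.1%) had all of them on 1 side, and the median share of the fuller side was 87.5%. Around RNAPol2 peaks with TEAD or YAP but no Myc, 270 of 1191 (22.7%) were one-sided in this way, and around wide RNAPol2 peaks, some of which hold Myc, 150 of 747 (20.1%). The Myc-holding peaks were one-sided more often than the TEAD or YAP peaks on 20 of 20 chromosomes and in each of the 7 other settings. Those with Myc were also higher, with a median fold enrichment of 17.62 against 5.86, and of any length rather than under 4000 bp. Their one-sided share was 37.4% in the lowest quartile of fold enrichment (median 6.70) and 47.3% in the highest. Within the lowest quartile it was 41.8% for Myc alone, 38.0% with TEAD and 30.2% with TEAD and YAP. The part of height and length in the contrast was not tested. The strand of transcription was not analysed here.

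The higher the Myc-holding RNAPol2 peak, the more often no-factor peaks lay beside it. From the lowest to the highest quartile of its fold enrichment, 45.2%, 52.8%, 61.9% and 77.6% had at least 1 in the flanks, and the mean number was 1.85, 2.05, 2.57 and 3.94. The highest quartile exceeded the lowest on 20 of 20 chromosomes. By the other factors beside Myc, the share was 57.2% for Myc alone, 61.6% for Myc and TEAD and 56.5% for all 3 factors. The mean number was 2.34, 2.66 and 2.76, so the share and the mean ordered these classes differently. The mean for all 3 factors exceeded that for Myc alone on only 13 of 20 chromosomes. The order of the shares by factors turned with height. In the lowest quartile the shares were 54.1% for Myc alone, 44.9% with TEAD and 36.7% with TEAD and YAP, and in the highest quartile 73.1%, 76.8% and 83.0%.

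**Figure D5:**
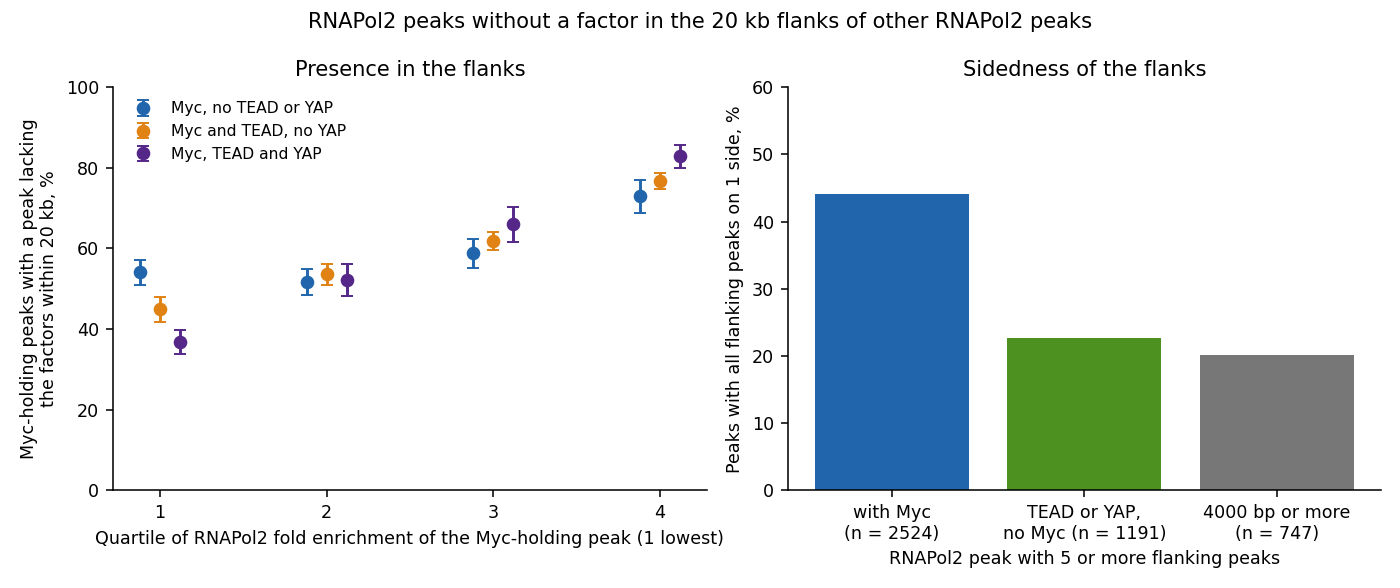
Left, share of Myc-holding RNAPol2 peaks (percent) with a no-factor peak within 20 kb, by quartile of the peak's own fold enrichment and by the other factors it holds, with 95% Wilson intervals. Right, share of RNAPol2 peaks with all of their 5 or more flanking no-factor peaks on 1 side, which is 44.1% with Myc, 22.7% with TEAD or YAP and 20.1% for wide peaks.

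The no-factor peaks were seldom near misses of the overlap rule. The nearest factor peak of any kind was a median of 7.31 kb away, and 11.8% had one within 1 kb. TEAD, the longest of the factor lists, was nearest, at a median of 8.64 kb, with 9.0% within 1 kb. Myc peaks lay at a median of 14.2 kb and YAP peaks at 41.3 kb, with 5.86% and 1.83% within 1 kb. The 320 no-factor peaks at most 100 bp from a factor peak had a median pileup of 29 and a median fold enrichment of 5.02, and the 369 RNAPol2 peaks that shared 1 to 100 bp with one had 28 and 4.81. At the length limit, the 196 no-factor peaks of 3500 bp or more had a median fold enrichment of 10.31 and the 142 factor-free peaks from 4000 to under 4500 bp had 10.08, so neither limit marked a step in median height. Strong peaks, however, were 10.6% (7.70 to 14.5) of those 320 no-factor peaks and 4.88% (3.11 to 7.58) of those 369.

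Single regions on both sides of the length limit overlapped in height. Just under it were chromosome 5 from 89083894 to 89087891 (3998 bp, fold enrichment 15.91), chromosome 12 from 17003313 to 17007310 (3998 bp, 11.09) and chromosome 1 from 16086788 to 16090780 (3993 bp, 12.77). Just over it were chromosome 15 from 12120893 to 12124895 (4003 bp, 6.54), chromosome 3 from 88125700 to 88129706 (4007 bp, 16.43) and chromosome 7 from 28982661 to 28986667 (4007 bp, 13.60).

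Of the 5 no-factor peaks of highest fold enrichment, 4 sat within 1 kb of Myc-bound polymerase, as did 246 of all 1389 strong ones. The first by fold enrichment, on chromosome 11 from 94072528 to 94073347, had a pileup of 226 and a fold enrichment of 47.30 and lay 168 bp from a Myc-holding RNAPol2 peak. The next, on chromosome 2 from 130104891 to 130108860, had 220 and 46.05 at 95 bp from one, and that on chromosome 4 from 129190649 to 129191256 had 208 and 43.53 at 226 bp from one, with no base between it and a TEAD peak. That on chromosome X from 34137568 to 34138667 had 182 and 38.09, at 269 bp from Myc-holding RNAPol2, 255 bp from a TEAD peak and 309 bp from a YAP peak. Of the 5 highest, only a region of 879 bp on chromosome 18 stood apart, with a pileup of 206 and a fold enrichment of 43.12 at 96602 bp from the nearest RNAPol2 peak of any class.

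Among the peaks beyond 100 kb from Myc-holding RNAPol2, the one with the highest pileup, 218, was on chromosome 3 from 121670350 to 121671206. It lay 119.75 kb from Myc-holding RNAPol2 but 64 bp from another RNAPol2 peak, 144 bp from a TEAD peak and 415 bp from a YAP peak. On chromosome 10 from 72788896 to 72790010, a pileup of 196 and a fold enrichment of 28.70 were found 670.75 kb from Myc and 41767 bp from any other RNAPol2 peak. Also on chromosome 10, the peak from 29081208 to 29082666 had a pileup of 182 and stood 837.26 kb from Myc in a run of 8, and the peak from 120415951 to 120416954 had 128 at 167.89 kb. On chromosome X the peak from 163645826 to 163647307 had a pileup of 200 at 172.62 kb. The next RNAPol2 peak was 4780 bp from the peak in the run of 8, 231 bp from the third on chromosome 10 and 465 bp from that on chromosome X. Of these 5 far peaks, then, only the first on chromosome 10 had no RNAPol2 peak within 10 kb, and only that on chromosome 3 lay beside TEAD and YAP.

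Of the 3 farthest no-factor peaks, 1 was strong. The one on chromosome 5 from 58968780 to 58969279 lay 4579 kb from Myc-holding RNAPol2 and 4578026 bp from any RNAPol2 peak, with a pileup of 35 and a fold enrichment of 6.10. The next were on chromosome X, from 57657326 to 57658152, with a fold enrichment of 11.93 at 3011 kb, and from 143988055 to 143988333, with 6.70 at 2904 kb.

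Chromosomes differed in how much of their RNAPol2 list was factor-free, and in more than that. No-factor peaks were 57.6% of the RNAPol2 peaks on chromosome 12 and 69.2% on chromosome 5. The share beyond 100 kb from Myc was 17.5% on chromosome X and 1.27% on chromosome 11. On chromosomes 10, 15 and 19 the control level was 1.38, 1.5 and 1.31 times its lowest level, against 1.00 to 1.20 elsewhere, and the no-factor peaks had a lower median fold enrichment (4.58, 4.26 and 4.59, against 4.81 to 5.44) at a median pileup of 31, 31 and 29. Without those 3 chromosomes the ratio of median pileup near and far from Myc was 0.964 and the share in runs 68.7%. Among all the no-factor peaks counted above, 22 lay on unplaced sequences and none on the mitochondrial genome.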

How the data were processed

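ChIP-seq peak lists of 4 samples (RNAPol2, Myc, TEAD and YAP, 1 sample each) were used as deposited. Per the labels and the study's methods, the authors sheared chromatin to an average of 250 bp, aligned reads to mm9 with BWA 0.6.2, used SAMtools, and called narrow peaks with MACS2 2.0.9 against a control at a p-value cutoff of 1e-05, per the file headers. The deposited values are the pileup at the summit (a signal in fragments, with the larger library scaled down), the fold enrichment (a ratio to the local control), and the −log10 p-value and −log10 q-value. It is not stated whether the deposited input, which has no list analysed here, was that control.

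No-factor peaks, classes, distances, runs and flanks were computed with Python 3.11.15, numpy 2.4.6, pandas 2.3.3, scipy 1.17.1 and matplotlib 3.10.9. Routines were tested on simulated data. An overlap was at least 1 bp, near meant within 10 kb, far beyond 100 kb, a run had gaps of at most 5 kb, and a flank was 20 kb. Named regions were the 5 highest by fold enrichment, the 5 highest by pileup beyond 100 kb, the 5 runs with the most peaks, the 3 on either side of the length limit and the 3 farthest from Myc. The members, rules and lists were chosen with earlier results of these data known. The fold enrichment limit of 10, the classes of run size and width, the 10 kb limit for a lone peak and the counts by chromosome were added after the values were seen. Alternatives covered thresholds, overlap, length, chromosomes, distance, height and gaps.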

Additional observations from a re-analysis of the deposited data

How the results depend on the processing

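No paired analysis was possible because there was 1 sample per antibody. Depth limits what an absent factor peak means, and a peak list says nothing of signal under its threshold. Of 57 values recomputed under 18 settings, 28 stayed the same and 29 moved. The same meant within the counting interval of the main value or, for the number of no-factor peaks, within a set factor of it. The cause was not tested.

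With a −log10 q-value of at least 10 in every list there were 14552 no-factor peaks, median pileup 35, 37.1% within 10 kb of Myc-holding RNAPol2, a median distance of 16.4 kb and 41.5% in runs. With the stronger 50% of each list these were 13571, 38, 28.6%, 25.001 kb and 32.1%, and the near to far ratio of median pileup was 0.95. When a factor peak within 500 bp also removed a peak, 37.5% were near, at 15.05 kb, and 71.1% in runs. A limit of 2000 bp gave 65.3% in runs. Without chromosomes 10, 15 and 19 the ratio was 0.964 and the share in runs 68.7%. Between summits, 35.2% were near at a median of 15.7 kb, and from the nearest Myc peak itself 38.8%. The ratio was 0.956 for fold enrichment, 0.951 for −log10 p-value and 0.996 within width deciles. Gaps of 2 kb and 10 kb gave 59.9% and 73.9% in runs, and 72.7% when other RNAPol2 peaks did not end a run. The higher shares of strong peaks within 1 kb, beyond 100 kb, among single peaks and among peaks without a neighbour, and the 1-sided flanks of Myc-holding peaks, kept their direction in the 7 settings recomputed for them after seeing the data. Those settings were not independent, since all drew on the same lists and some left nearly the same peaks. Also chosen after seeing the data, 1 to 10 kb as near gave a ratio of 0.964, the 90th percentile of fold enrichment 0.824, and Myc-holding peaks under 4000 bp alone 35.8% near.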
